A study of Mus musculus with 8 samples.

Results

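Apoptosis and p53 genes were followed in the superior cervical ganglion of newborn mice after loss of the kinesin KIF1B beta from noradrenergic cells. The set holds 39 of the 23827 rows of the count table, taken by gene symbol: the BCL2 family, caspases, the apoptosome and mitochondrial factors, inhibitor of apoptosis (IAP) genes, p53 with its regulators and targets, a pair of death receptors, and Dhx9 and Xaf1, which earlier work in human neuroblastoma cells placed downstream of KIF1B beta. Each symbol stood on a single row. Conditional knockout (cKO) mice had the genotype KIF1Bb fl/fl :DBHcre +/-, and control mice had KIF1Bb fl/fl :DBHcre -/-. Both groups were C57Bl6/n mice on postnatal day 1, with 4 libraries each, every one made from both ganglia of 1 animal. All animals therefore carried the floxed allele, and only cKO animals carried Cre, which is driven by the promoter of the dopamine beta-hydroxylase gene and acts in noradrenergic cells. Glia, blood vessels and fibroblasts of the ganglion keep the gene.

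Sympathetic neurons are made in excess and die by mitochondrial apoptosis around birth where target-derived nerve growth factor is short. BH3-only proteins, induced or activated by stress, block the anti-apoptotic BCL2 proteins. BAX and BAK then open the outer mitochondrial membrane, cytochrome c binds APAF1, and the apoptosome activates caspase 9, while DIABLO and HTRA2 relieve the block that IAP proteins place on caspases. The p53 protein drives transcription of several of these genes and of its own inhibitor MDM2. KIF1B beta promotes death of neuroblastoma cells that lack growth factor. In those cells it binds the nuclear helicase DHX9, which is reported to raise XAF1, an antagonist of XIAP.

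A full p53 response element is a pair of copies of a 10-base unit, here called the p53 decamer. Windows from 250 bases before to 50 bases after a transcription start (RefSeq, GRCm38.p6) were found for 33 of the 39 genes, 47 windows in all. The decamer, which reads the same on both strands, was in 11 of these windows (23.4%) and in 10 of the genes, against 8.36% of 32851 windows over all genes. The set was chosen to hold p53 targets, so the higher share is not a result of these libraries. The windows of Aen with a decamer hold the same site. A full element, with an exact match in both units and a spacer of up to 13 bases, was in 0 of the 47 windows and in 0.0731% of all windows. Elements with a mismatch in either unit were not searched for, so the 0 does not exclude them. The genes with a decamer were Aen, Bax, Birc2, Bmf, Ccng1, Dhx9, Mdm2, Sesn1, Trp53 and Xaf1. The stretches around it in Mdm2, Ccng1, Bax, Trp53, Dhx9 and Xaf1 are shown 5′ to 3′ because the results below set these genes beside each other. Capitals mark the decamer.
Mdm2, chr10:117710890-117710989, minus strand: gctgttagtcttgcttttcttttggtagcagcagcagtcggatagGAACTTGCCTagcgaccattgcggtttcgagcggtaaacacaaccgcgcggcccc
Ccng1, chr11:40755417-40755516, minus strand: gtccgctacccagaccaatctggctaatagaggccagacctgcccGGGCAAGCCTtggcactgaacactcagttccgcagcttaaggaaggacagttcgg
Bax, chr7:45467045-45467144, minus strand: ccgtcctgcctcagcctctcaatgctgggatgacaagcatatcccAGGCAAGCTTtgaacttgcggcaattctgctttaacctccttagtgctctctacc
Trp53, chr11:69580239-69580338, plus strand: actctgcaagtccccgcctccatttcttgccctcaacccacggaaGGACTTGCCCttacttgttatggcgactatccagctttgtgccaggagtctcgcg
Dhx9, chr1:153487826-153487910, minus strand: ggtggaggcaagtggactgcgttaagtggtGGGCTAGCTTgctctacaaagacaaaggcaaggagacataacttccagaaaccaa
Xaf1, chr11:72301479-72301508, plus strand: gcatgacagaGGACTAGCCCatgctgcaga
A match describes the letters only and does not show that p53 binds there.

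Total counts lay between 16214912 and 18114418 per library. Kif1b, the targeted gene, had 302, 191, 299.7 and 246 CPM (counts scaled to library size with TMM factors) in cKO ganglia, against 1454, 1319.8, 933 and 1191 CPM in control ganglia, and it fell (log2 fold change -2.24, SE 0.18, adjusted p = 0.000343 in edgeR's quasi-likelihood test). The labels therefore matched the targeted gene in all 8 libraries, although the count joins all isoforms and all cells. Of 18 sympathetic neuron markers 0 passed the edgeR test, with 5 lower in cKO at an unadjusted p below 0.05, and their summed level was 22373 to 24893 CPM in cKO and 26415 to 28297 CPM in control ganglia. Summed markers of satellite glia and Schwann cells were 3554 to 4089 CPM in cKO and 2370 to 2971 CPM in control ganglia, with 4 of 15 higher in cKO. Blood vessel markers summed to 536 to 638 CPM in cKO and 337 to 413 CPM in control ganglia, with 5 of 15 higher. Fibroblast markers summed to 8225 to 12082 CPM in cKO and 5950 to 7639 CPM in control ganglia, with 6 of 12 higher. These counts are of genes past the edgeR threshold, where 1.6% of all tested genes were higher. At an unadjusted p below 0.05, 11 of 15 glial, 15 of 15 vessel and 11 of 12 fibroblast markers were higher. Over all tested genes 9.42% were higher and 7.42% lower at that p. Macrophage and leukocyte markers overlapped between groups, at 283 to 463 CPM in cKO and 237 to 367 CPM in control ganglia. Sensory neuron markers summed to 323 CPM in cKO 4, 135 to 164 CPM in the other cKO libraries and 124 to 188 CPM in control ganglia. No marker of these lists was at 0. In whole ganglia, fewer cells of a type and less RNA per cell cannot be told apart. The part of these shifts in any value below was not tested.

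None of the apoptosis and p53 genes passed the test. With Benjamini-Hochberg adjustment over all 14592 tested genes, 0 of the 38 tested members had an adjusted p below 0.05 in edgeR's quasi-likelihood test, where 2.72% of all genes did (1.6% higher and 1.12% lower in cKO ganglia). At an unadjusted p below 0.05 there were 7 members (18.4%), 5 higher and 2 lower in cKO ganglia, against 16.8% of all tested genes (9.42% higher and 7.42% lower). Those higher were Xaf1, Casp6, Trp53, Casp2 and Fas, and those lower were Bcl2 and Birc3. The members' share is close to the background. The Wald test of DESeq2 called 3 members, Xaf1 (adjusted p = 0.0117), Casp6 (0.0472) and Bcl2 (0.0478), which is 7.89% of the members against 6.95% of all genes in that test. In limma voom 0 members were called, against 2.97% of all genes. The median log2 fold change of the 38 genes was 0.04, with 22 positive and 16 negative, and that of all tested genes was -0.0006. Their median absolute log2 fold change was 0.149, beside 0.152 over all tested genes. The remaining gene, Pmaip1, was below the filter on low counts.

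The precision of the comparison can be read from the intervals. In 22 of 38 members (57.9%) the 95% interval of the log2 fold change lay within 1.5-fold either way, as it did in 58.9% of all tested genes. For 35 of 38 (92.1%) it lay within 2-fold, as it did in 87.8% of all tested genes. The exceptions were Bik, Fas and Xaf1. All other intervals, including those of Bax, Bcl2, Casp9, Apaf1, Mdm2 and Dhx9, held no change of 2-fold or more.

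**Figure D1:**
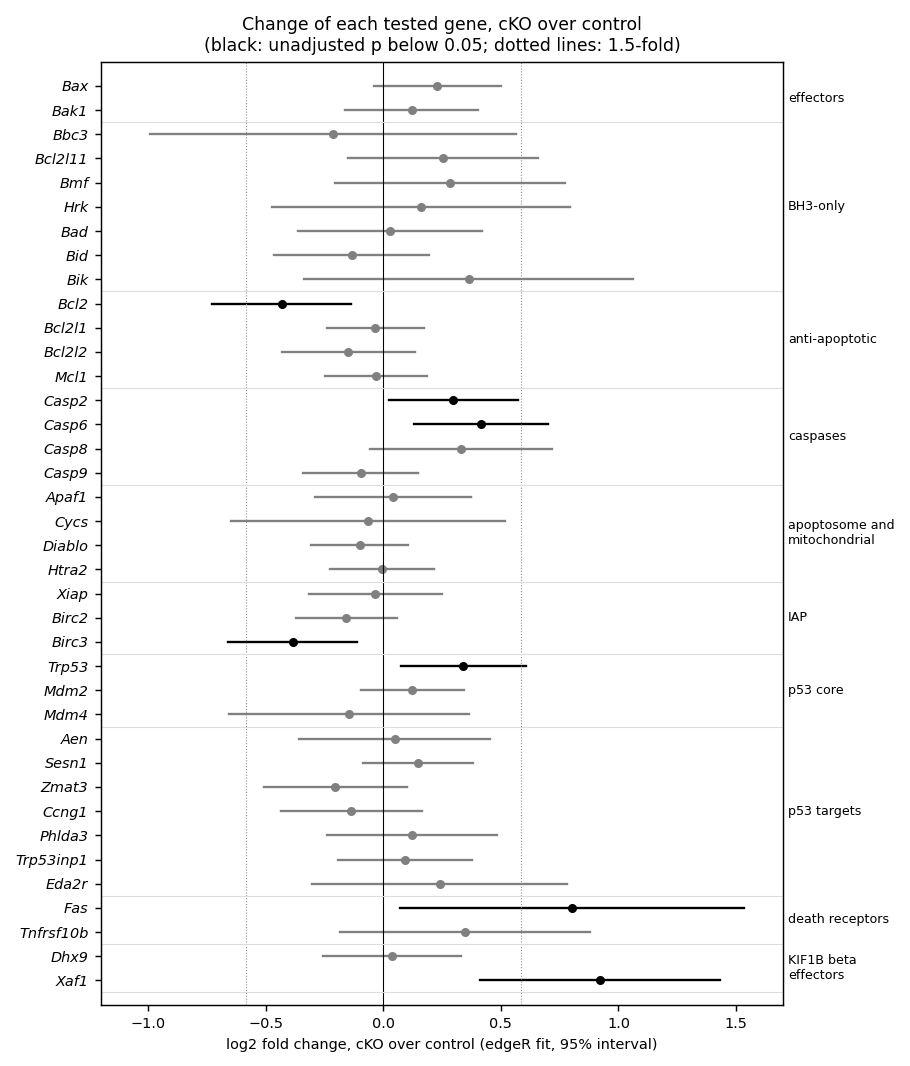
Log2 fold change, cKO over control, of each tested gene with its 95% interval from the edgeR fit, grouped by role. Only 7 intervals, drawn in black, do not cross 0: those of Bcl2 and Birc3 lie below it and those of Casp2, Casp6, Trp53, Fas and Xaf1 above it.

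Levels per kilobase of exon differed widely among the genes. Mcl1, which encodes a short-lived anti-apoptotic BCL2 protein, was highest, with 45.9 ± 3.13 RPKM (CPM per kilobase of annotated exon) in cKO and 46.8 ± 3.57 RPKM in control ganglia (SD, n = 4 each). Diablo, whose product antagonises IAP proteins, had 40.9 ± 3.08 RPKM in cKO and 43.8 ± 2.35 RPKM in control ganglia. Dhx9 had 36.9 ± 4.90 RPKM in cKO and 35.9 ± 4.79 RPKM in control ganglia, and Bax had 41.9 ± 5.88 RPKM in cKO and 35.8 ± 3.35 RPKM in control ganglia. In control ganglia Mcl1 and Diablo did not differ beyond their spread, nor did Dhx9 and Bax, and the order of the 4 genes changes when the longest transcript is used as the length. In control ganglia 16 of 39 genes exceeded 10 RPKM and 6 were below 1 RPKM: Fas, Xaf1, Bik, Eda2r, Tnfrsf10b and Pmaip1. Both death receptor genes, Fas and Tnfrsf10b, were thus among the lowest. Cycs, which encodes cytochrome c, had only 1.87 ± 0.598 RPKM in cKO and 1.95 ± 0.462 RPKM in control ganglia. RefSeq lists 3 pseudogenes of Cycs and 1 each of Trp53 and Mdm4, and no source used here states how reads shared with such copies were counted.

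**Figure D2:**
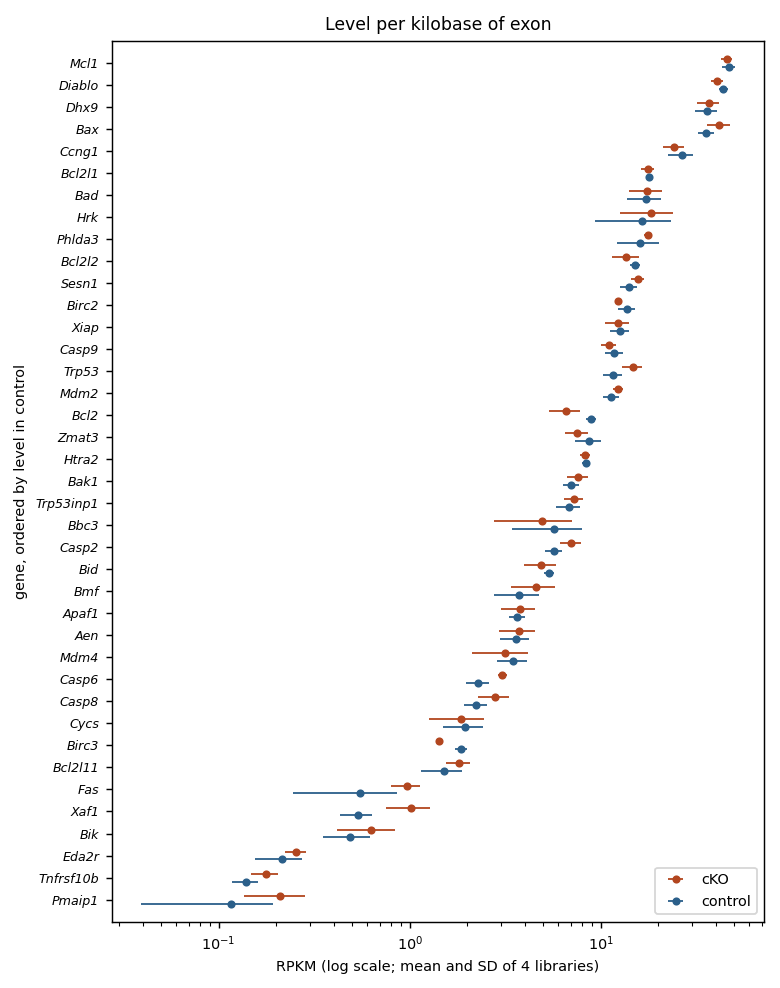
Mean RPKM with SD over 4 libraries for cKO (upper point of each row) and control (lower point) on a log axis, ordered by the level in control. Mcl1, Diablo, Dhx9 and Bax lead, and Pmaip1 is lowest in control at 0.116 RPKM.

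Neither effector of membrane opening separated the groups. Bax had 54.3, 75.1, 63.3 and 71.6 CPM in cKO ganglia, against 51.5, 55.3, 63.9 and 54.7 CPM in control ganglia. Libraries cKO 1 and cKO 3 lay inside the control range, and control 2, control 3 and control 4 inside the cKO range, so the groups overlapped. The log2 fold change of Bax was 0.23 (SE 0.12, 95% interval -0.04 to 0.50, edgeR adjusted p = 0.396). Bak1, the other effector, had a log2 fold change of 0.12 (SE 0.13).

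Among anti-apoptotic genes Bcl2 stood apart from the rest in size. Bcl2, the founding survival protein of the family (chromosome 1, 106538178 to 106714274, minus strand, GRCm38), had 70.5, 47.1, 68.8 and 55.8 CPM in cKO ganglia, against 82.4, 87.8, 75.8 and 80.7 CPM in control ganglia. Every cKO library lay below every control library, and the cKO libraries were more spread. The log2 fold change was -0.43 (SE 0.13, 95% interval -0.73 to -0.14), and edgeR gave an adjusted p of 0.123. An exact two-sided permutation test of the group means of log2 CPM gave p = 0.0286, the smallest that 70 assignments allow. Groups that do not overlap always give this p, so here and below it adds nothing to the separation itself. With 1 library left out, the log2 fold change lay between -0.53 and -0.33.

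Its relatives had smaller log2 fold changes, and the difference between these genes was not tested. Bcl2l1, which encodes BCL-XL, had 82.4, 72.3, 88.0 and 80.2 CPM in cKO ganglia, against 87.3, 81.4, 79.8 and 81.9 CPM in control ganglia. Mcl1 had 167, 155, 163 and 142 CPM in cKO ganglia, against 163, 166, 169 and 142 CPM in control ganglia. The groups overlapped in both genes. For Bcl2l1 the log2 fold change was -0.03 (SE 0.09, 95% interval -0.24 to 0.17), and for Mcl1 it was -0.03 (SE 0.10, 95% interval -0.25 to 0.19). Bcl2l2, which encodes BCL-W, stood at -0.15 (SE 0.13) on the log2 scale, and its lowest value, 46.6 CPM, was in cKO 2, the library that was also lowest in Bcl2.

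Ratios within a library set these genes against each other without regard to library size. The log2 ratio of Bcl2l1 to Bcl2 in RPKM was 1.43 ± 0.175 in cKO and 1.02 ± 0.089 in control ganglia (SD, n = 4 each), and the 1.22 of the lowest cKO library exceeded the 1.08 of the highest control library. For Bax over Bcl2 it was 2.67 ± 0.471 in cKO and 2.00 ± 0.201 in control ganglia, and for Bax over Bcl2l1 it was 1.24 ± 0.298 in cKO and 0.985 ± 0.18 in control ganglia. The groups overlapped in these other two ratios, and cKO 2 and cKO 4 were highest in both. Mdm2 over Mdm4 was 2.04 ± 0.443 in cKO and 1.715 ± 0.272 in control ganglia, and Apaf1 over Xiap was -1.724 ± 0.097 in cKO and -1.78 ± 0.10 in control ganglia, with overlap in each. The ratios are descriptions and were not tested.

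**Figure D3:**
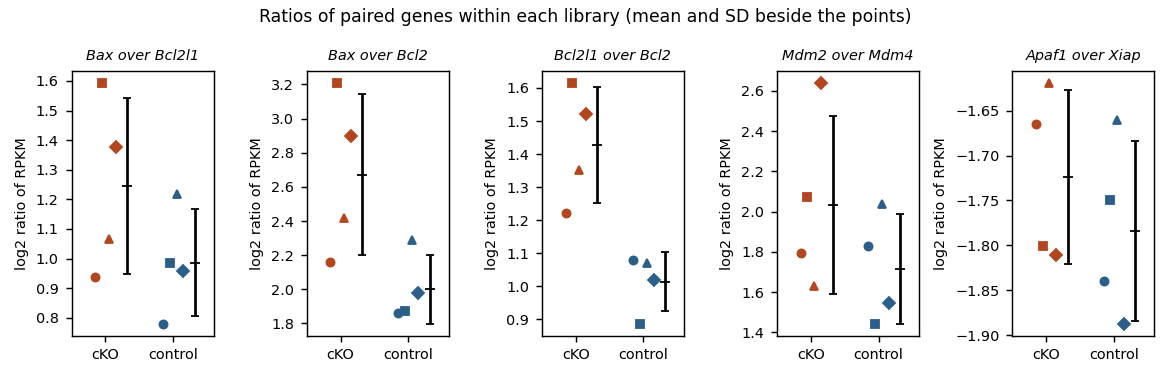
Log2 ratio of RPKM of gene pairs in each cKO (left) and control (right) library, with mean and SD beside the points and a separate axis for each panel. Only Bcl2l1 over Bcl2 separates the groups, from 1.22 to 1.62 in cKO and from 0.887 to 1.08 in control.

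No BH3-only gene separated the groups. Of 7 tested, 5 had positive and 2 negative log2 fold changes, with a median of 0.16, and none had an unadjusted p below 0.05. Hrk, a BH3-only gene induced in sympathetic neurons that lose nerve growth factor, had 144, 72.8, 115 and 83.9 CPM in cKO ganglia, against 152, 68.4, 66.7 and 85.3 CPM in control ganglia. Bbc3, the p53 target also called Puma, had 16.1, 5.37, 8.46 and 11.9 CPM in cKO ganglia, against 18.2, 6.46, 12.3 and 11.5 CPM in control ganglia. Both were highest in the library numbered 1 of each group. Bmf, Bcl2l11 (Bim) and Bik had log2 fold changes of 0.28 (SE 0.22), 0.26 (SE 0.18) and 0.36 (SE 0.32). Bad and Bid had 0.03 (SE 0.18) and -0.13 (SE 0.15). Pmaip1 (Noxa) had 9, 9, 15 and 7 counts in cKO libraries, against 10, 2, 4 and 5 counts in control libraries, too few for the test. The intervals of Hrk, from -0.47 to 0.79, and of Bbc3, from -0.99 to 0.57, are the widest of the well expressed genes, and hold changes of either sign.

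The libraries numbered 1 stood apart over the members, as they did over all genes. The leading principal component of the 38 tested genes held 43.2% of their variance and scored -1.91 in cKO 1 and -1.50 in control 1, against -0.480 to 1.15 in the other libraries. The next component held 29.2% and separated the groups, from -1.45 to -0.281 in cKO and from 0.246 to 1.09 in control ganglia. Over all tested genes the leading component (37.1%) likewise set both libraries numbered 1 apart, at -37.1 in cKO 1 and -32.9 in control 1 against -12.8 to 23.0 in the others. The next (28.5%) likewise separated the groups, from -27.2 to -14.6 in cKO and from 14.8 to 26.9 in control ganglia, so neither pattern is particular to these genes. Summed muscle and cartilage markers were 251 CPM in cKO 1 and 134 CPM in control 1, against 66.3 to 88.2 CPM in the others. Red blood cell markers summed to 68.3 CPM in cKO 1 and 40.0 CPM in control 1, against 3.82 to 8.88 CPM in the others, with Hba-a1 and Hba-a2 at 0 in all libraries. The part of either in the values of Hrk and Bbc3 was not tested. Without both libraries numbered 1, 1 of 38 members (2.63%), Fas, was called in edgeR, against 2.99% of all genes.

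**Figure D4:**
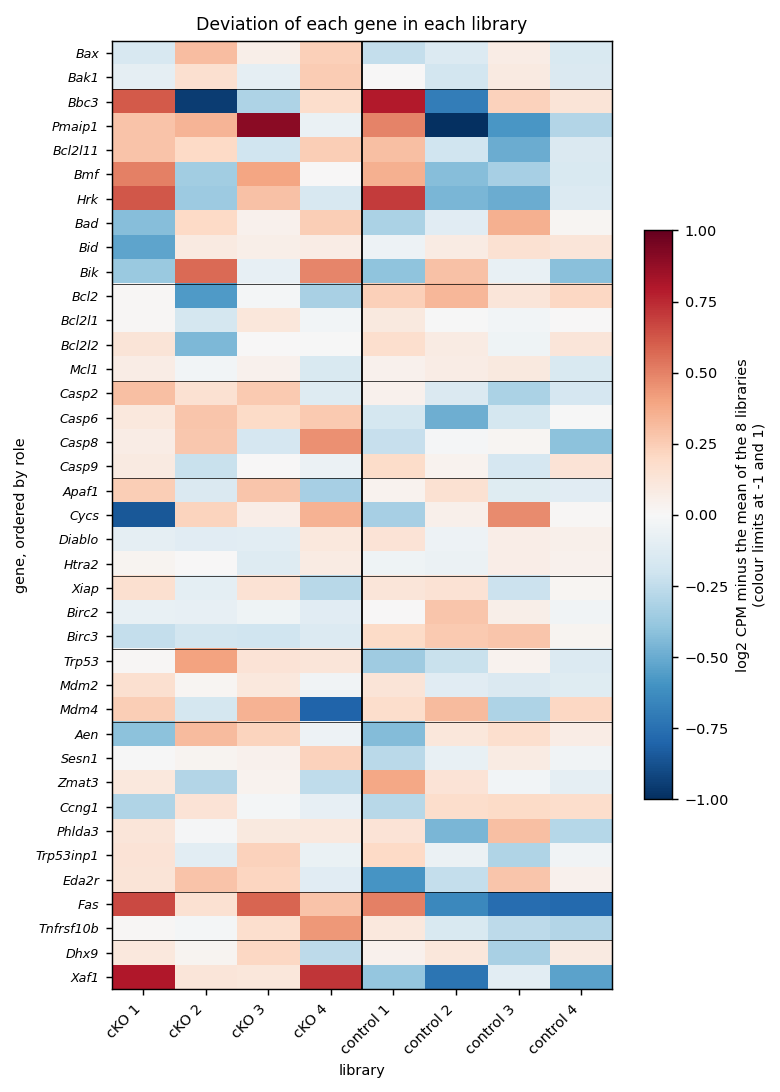
Log2 CPM of each gene minus its mean over the 8 libraries, with cKO libraries left of the black line and control libraries right of it. Hrk, Bbc3 and Bmf are above their mean in cKO 1 and control 1, while Bcl2 and Birc3 are above it in all control libraries and Casp6 in all cKO libraries.

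Casp2, Casp6 and Casp8 had positive log2 fold changes and Casp9 a negative one. Casp6, an executioner caspase with a role in axon degeneration (chromosome 3, 129901425 to 129914103, plus strand, GRCm38), had 15.9, 17.9, 16.9 and 17.6 CPM in cKO ganglia, against 13, 10.5, 13 and 14.7 CPM in control ganglia. The groups did not overlap. Its log2 fold change was 0.42 (SE 0.13, 95% interval 0.13 to 0.70, edgeR adjusted p = 0.122, exact permutation p = 0.0286). Casp2, an initiator linked to the p53 response, had 54.6, 49.3, 53.3 and 40.5 CPM in cKO ganglia, against 45.6, 40.1, 35.7 and 39.4 CPM in control ganglia. Here cKO 4 lay within the control range, and the log2 fold change was 0.30 (SE 0.12, edgeR adjusted p = 0.25, exact permutation p = 0.0571). Casp8, the initiator of the death receptor route, had a log2 fold change of 0.33 (SE 0.18).

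Apoptosome genes gave small values. Casp9, the initiator that the apoptosome activates, had 63.1, 50.8, 59.2 and 56.8 CPM in cKO ganglia, against 67.1, 60.5, 52.7 and 65.2 CPM in control ganglia. Apaf1, its scaffold, had 39.4, 30.0, 40.4 and 26.3 CPM in cKO ganglia, against 34.0, 36.9, 30.6 and 30.8 CPM in control ganglia. The groups overlapped in both, and the log2 fold change was -0.10 (SE 0.11) for Casp9 and 0.04 (SE 0.15) for Apaf1. Diablo and Htra2 had -0.10 (SE 0.09) and -0.01 (SE 0.10), and Cycs had -0.07 (SE 0.26). Htra2 and Diablo overlap other tested genes on the opposite strand, as do Bak1, Bad and Bid, and no source used here states whether the counts are stranded.

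All 3 IAP genes of the set had negative log2 fold changes, while Birc5, an IAP gene outside it, had 0.45 (SE 0.15). Birc3, a ubiquitin ligase of NF-kappa B and death receptor signalling (chromosome 9, 7848699 to 7873186, minus strand, GRCm38), had 6.91, 7.17, 7.10 and 7.39 CPM in cKO ganglia, against 9.32, 9.78, 9.91 and 8.33 CPM in control ganglia. Every cKO library lay below every control library, and the cKO libraries were tightly grouped. The log2 fold change was -0.39 (SE 0.12, 95% interval -0.66 to -0.11), with an edgeR adjusted p of 0.136 and an exact permutation p of 0.0286. Its neighbour and paralog Birc2 had 56.5 ± 1.13 CPM in cKO and 63.0 ± 6.27 CPM in control ganglia (SD, n = 4 each), without overlap, and a log2 fold change of -0.16 (SE 0.10). Xiap, the direct caspase inhibitor, had -0.03 (SE 0.13), and its sign was positive in 4 of 17 alternative settings. In all, groups did not overlap in 5 of 38 members (13.2%), Bcl2, Casp6, Birc2, Birc3 and Xaf1, against 11% of all tested genes. Of these, 2 were higher in cKO (5.26%, against 6% of all tested genes) and 3 lower (7.89%, against 5.02%).

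Trp53 had higher values in most cKO libraries without passing the test. Trp53, which encodes p53 (chromosome 11, 69580359 to 69591873, plus strand, GRCm38), had 53.3, 69.6, 58.0 and 57.4 CPM in cKO ganglia, against 41.1, 45.1, 54.1 and 48.0 CPM in control ganglia. The groups overlapped through control 3, which lay above cKO 1. The log2 fold change was 0.34 (SE 0.12, 95% interval 0.07 to 0.61), the edgeR adjusted p was 0.175 and the exact permutation p was 0.0571. Mdm2, the target that degrades p53, had 67.3, 61.0, 64.6 and 58.5 CPM in cKO ganglia, against 65.8, 55.4, 54.3 and 55.2 CPM in control ganglia, and a log2 fold change of 0.12 (SE 0.10). Control 1 lay inside the cKO range and the other control libraries below it. Mdm4, which holds p53 inactive, had a log2 fold change of -0.15 (SE 0.23).

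Of the 7 genes grouped here as p53 targets, 5 had positive and 2 negative log2 fold changes, with a median of 0.09. None of the 7 had an unadjusted p below 0.05 in edgeR. Bax, Bbc3, Mdm2 and Fas were counted under other roles and are not among them, and Fas did have an unadjusted p below 0.05. Sesn1, a stress sensor of the TOR pathway, had 0.15 (SE 0.11), Phlda3, an inhibitor of AKT, had 0.12 (SE 0.16), Trp53inp1 had 0.09 (SE 0.13) and the exonuclease gene Aen had 0.05 (SE 0.18). Eda2r, a receptor gene at about 1 CPM, had 0.24 (SE 0.24). Zmat3 and Ccng1, a pair of well expressed targets, had -0.20 (SE 0.14) and -0.14 (SE 0.14). In 6 of these 7 genes the 95% interval lay within 1.5-fold either way. The genes with a printed stretch had log2 fold changes of 0.12 for Mdm2, -0.14 for Ccng1, 0.23 for Bax, 0.34 for Trp53, 0.04 for Dhx9 and 0.92 for Xaf1. The other genes with a decamer had 0.05 for Aen, 0.28 for Bmf, 0.15 for Sesn1 and -0.16 for Birc2. Ccng1 and Birc2 were thus the only negative ones. A relation between the decamer and these values was not tested.

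Death receptor genes were scarce, and the value of Fas turned on 1 control library. Fas (chromosome 19, 34290666 to 34327772, plus strand, GRCm38), the receptor for FAS ligand, had 2.34, 1.61, 2.21 and 1.78 CPM in cKO ganglia, against 2.08, 0.878, 0.802 and 0.790 CPM in control ganglia. Control 1 lay among the cKO libraries and the other control libraries below all of them. The log2 fold change was 0.80 (SE 0.33, edgeR adjusted p = 0.246, exact permutation p = 0.0857). Without control 1 it was 1.26 (SE 0.26), and the gene passed (edgeR adjusted p = 0.0283) as the only member, in a fit that called 3.49% of all genes. Without both libraries numbered 1 it was 1.18 (SE 0.27, edgeR adjusted p = 0.0472). These values rest on 13 to 41 counts per library. Tnfrsf10b, the mouse TRAIL receptor, had a log2 fold change of 0.35 (SE 0.24).

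The pair tied to KIF1B beta by earlier work, Dhx9 and Xaf1, differed from each other in value. Dhx9 (chromosome 1, 153455758 to 153487660, minus strand, GRCm38) had 372, 354, 400.0 and 289 CPM in cKO ganglia, against 358, 376, 277 and 369 CPM in control ganglia. The groups overlapped throughout. Its log2 fold change was 0.04 (SE 0.13), with a 95% interval from -0.26 to 0.33. RNA level says nothing of where in the cell the protein lies, which is the step reported for KIF1B beta.

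Xaf1 (chromosome 11, 72301629 to 72313733, plus strand, GRCm38) had 5.999, 3.70, 3.69 and 5.66 CPM in cKO ganglia, against 2.57, 2.01, 3.15 and 2.31 CPM in control ganglia. Every cKO library lay above every control library, with cKO 1 and cKO 4 highest. The log2 fold change of 0.92 (SE 0.23, 95% interval 0.41 to 1.43) was the largest of the members and had the smallest p, but missed the threshold (edgeR adjusted p = 0.0619, exact permutation p = 0.0286). It lay between 0.776 and 1.05 with 1 library left out. The libraries held 105, 62, 65 and 105 counts in cKO, against 42, 32, 55 and 38 counts in control.

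**Figure D5:**
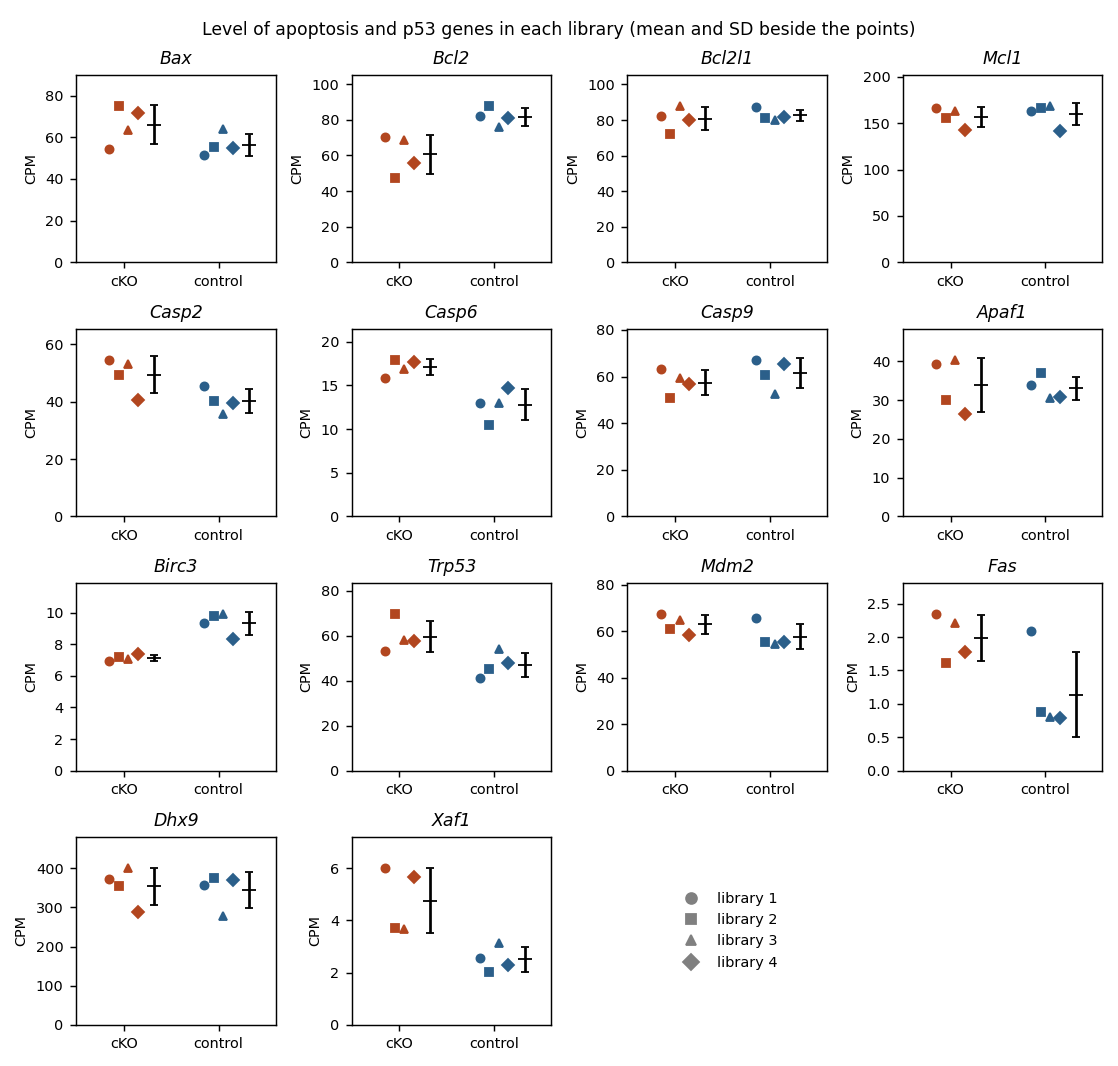
CPM of 14 genes in each cKO (left) and control (right) library, with mean and SD beside the points and marker shapes for the library number. The groups separate in Bcl2, Casp6, Birc3 and Xaf1, and a single control library, number 1, reaches the cKO values of Fas.

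Xaf1 is also induced by interferon. Of 24 tested interferon-stimulated genes 0 passed in edgeR and 7 had an unadjusted p below 0.05, of which 5 were higher in cKO ganglia. Over all tested genes 16.8% had an unadjusted p below 0.05, with 9.42% higher in cKO ganglia. In all, 17 had positive and 7 negative log2 fold changes, and the median was 0.31, beside -0.0006 over all tested genes. Their summed level was 302 to 393 CPM in cKO and 369 to 399.6 CPM in control ganglia. Within cKO it was highest in cKO 1 (393 CPM) and cKO 4 (378 CPM), the libraries that were also highest in Xaf1. The smallest p-values belonged to Trim25 and Stat2, at -0.48 (SE 0.12) for Trim25 and -0.46 (SE 0.11) for Stat2, both lower in cKO ganglia and both short of the threshold. The largest log2 fold change of the list was 1.03. The part of interferon in the value of Xaf1 was not tested. Among 21 other nuclear RNA helicases 0 passed in edgeR and 2 had an unadjusted p below 0.05, Dhx57 at -0.32 (SE 0.09) and Ddx39b at 0.20 (SE 0.09).

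The wider pathway was followed in lists of other genes. Of 42 other genes of the apoptosis machinery 0 passed in edgeR and 6 had an unadjusted p below 0.05, with 21 positive and 21 negative log2 fold changes and a median of -0.0009. Bag3, a chaperone partner that blocks cell death, had -0.30 (SE 0.09), and Birc5, an IAP gene of dividing cells, had 0.45 (SE 0.15). Markers of cell division summed to 428 to 639 CPM in cKO and 303 to 469 CPM in control ganglia, with 1 of 16 higher in cKO, and their part in the value of Birc5, itself on that list, was not tested. Of 34 other p53 targets 0 passed in edgeR and 7 had an unadjusted p below 0.05, with a median of 0.07. Abhd4 had 0.37 (SE 0.12) and Rrm2b, a ribonucleotide reductase subunit, had -0.35 (SE 0.12). Of 21 p53 regulators 0 passed in edgeR and 1 had an unadjusted p below 0.05, with the checkpoint kinase Chek2 at 0.54 (SE 0.16) and Ppp1r13b, which encodes ASPP1, at -0.22 (SE 0.11).

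Of 31 genes of death signalling in neurons 0 passed in edgeR and 3 had an unadjusted p below 0.05. Foxo1, a transcription factor restrained by AKT, stood at 0.48 (SE 0.14) on the log2 scale, and Nmnat2, an axon survival enzyme, had -0.34 (SE 0.11). Among the genes named from these lists, DESeq2 called Bag3, Foxo1, Trim25, Stat2 and Dhx57. In the prolyl hydroxylase axis, which acts upstream of KIF1B beta in sympathetic neuron death, 1 of 11 tested genes rose and 1, Kif1b, fell. Egln3, the prolyl hydroxylase that induces KIF1B beta, had 134, 139.8, 149 and 92.9 CPM in cKO ganglia, against 57.5, 53.5, 43.4 and 54.8 CPM in control ganglia. It rose, with no overlap of the groups (log2 fold change 1.303, SE 0.16, adjusted p = 0.00319 in edgeR).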

How the data were processed

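Polyadenylated RNA from ganglion pairs was made into libraries with a TruSeq v2 kit, per the labels' protocols. The authors deposited a table of raw counts, whole numbers with 1 row a symbol for most symbols, and the submitters' processing notes name STAR and mm10. No source used here gives STAR's version, the counter, its annotation or its strand setting. The members and lists were chosen with earlier results of these data known. The test was edgeR 4.0.16 under R 4.3.3 over 14592 genes, with TMM scaling, filterByExpr and a robust quasi-likelihood fit on group alone. The filter asked for about 0.586 CPM in at least 4 libraries, and each tested member met it in all 4 libraries of both groups. Each SE is the size of the log2 fold change divided by the root of F. Log2 CPM used a prior count of 2. RPKM used the union of GENCODE vM21 exons on GRCm38, the assembly also called mm10, which held all 39 symbols. Values in every library were given for a fixed set of 10 members for those with an unadjusted p below 0.05, and for Kif1b and Egln3. From each other list, up to 4 called genes or else the 2 with the smallest p were named by log2 fold change and SE. Hrk, Bbc3 and Pmaip1 were added to those shown in full after their values were seen. Each library came from 1 animal and counted as 1. Chi-square per gene between libraries of 1 group was 6.65 to 46.5, above sampling noise, and the source of this excess was not tested. Alternatives were DESeq2 1.42.0 (size factors, Wald test), limma 3.58.1 (voom), library size alone, other filters, a block for the sample number, and libraries left out.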

Additional observations from a re-analysis of the deposited data

Results flagged for a closer look

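In 78 groups of 4 libraries (39 genes in cKO and in control ganglia), 5 held a library whose gap to its nearest neighbour exceeded Dixon's critical share of the range. In independent groups chance flags about 1 in 20. The 78 groups share the same 8 libraries, so this rate cannot tell whether 5 is more than chance gives. Most of the 5 fell in the libraries numbered 1. Control 1 was highest in Fas at 2.08 CPM, where the next control library had 0.878 CPM. It was also highest in Mdm2 at 65.8 CPM and lowest in Ccng1 at 72.7 CPM, where the nearest control libraries had 55.4 and 99.9 CPM. Library cKO 1 was lowest in Bid at 12.5 CPM, below the 18.8 CPM of the next cKO library. Library cKO 4 was highest in Diablo at 280.5 CPM, above the 244 CPM of the next cKO library.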

How the results depend on the processing

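The count of members past the threshold was 0 with all libraries under each setting of edgeR and with voom. It was 3 with DESeq2 (2 higher, 1 lower), 1 (higher) without both libraries numbered 1, and between 0 and 1 with 1 library left out. Among all genes the count went to 1012 with DESeq2 (565 higher, 447 lower), to 687 with the replicate block (425 higher, 262 lower), and to 65 without both libraries numbered 4 (26 higher, 39 lower). With 1 library left out it lay between 74 and 514, between 33 and 318 for those higher and between 40 and 196 for those lower. No source used here says that the numbers in the titles pair the libraries. Deviations of same-numbered libraries correlated at 0.725, 0.352, -0.302 and 0.265, and not every library correlated best with its own number. The 0.725 of the libraries numbered 1 was the highest of all pairs, and what these libraries share was not tested. The block called 0 members, and of the other genes named it called Trim25 beside Kif1b and Egln3. With the longest transcript as length, the median level of the members was 8.65 RPKM in cKO and 9.80 RPKM in control ganglia, against 7.26 RPKM in cKO and 7.02 RPKM in control ganglia with the union of exons. The log2 fold changes of Xaf1, Casp6, Trp53, Casp2, Fas, Bcl2 and Birc3 kept their sign in all 17 alternatives. These genes were chosen by p in the same libraries, so a kept sign adds no evidence of a change. Casp9, Diablo and Mdm2, with small log2 fold changes, also kept their sign in all 17. With 4 animals a group, the 95% interval lay within 1.5-fold for only 22 of the 38 genes. The edgeR p-values set each group difference against the spread between libraries, each of 1 animal, estimated with information shared across genes.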
